A study of Drosophila melanogaster with 2 samples.

Results

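Mitochondrial ribosomal protein genes are nuclear genes whose products are imported into mitochondria and built into the ribosome that translates the few proteins encoded by mitochondrial DNA, most of them subunits of the respiratory chain. The large subunit (mRpL proteins) forms peptide bonds and holds the exit tunnel of the new chain, and the small subunit (mRpS proteins) decodes the messenger RNA. Some of these proteins have counterparts in bacterial ribosomes and others were added in the mitochondrial lineage. The members were chosen by name, as the protein-coding genes of the annotation whose symbol starts with mRpL or mRpS. There are 73 of them among 13945 protein-coding genes on the 6 chromosome arms, 47 of the large and 26 of the small subunit.

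The data map Jim, a C2H2 zinc finger transcription factor, on the chromatin of whole Drosophila melanogaster larvae of both sexes at the wandering stage, by chromatin immunoprecipitation and sequencing. Per the labels, the larvae carry a stable transgene whose product is Jim fused at the C-terminal end to GFP, the green fluorescent protein, and the precipitating antibody recognises this tag. Both samples belong to the same group, as 2 biological replicates numbered 1 and 3 in the labels, and no other genotype or stage is part of the data used here. Whole larvae mix all tissues, and binding in few cells cannot be told apart from weak binding in many.

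A gene was called bound when the summit of a region in the IDR list, the authors' list thresholded on the irreproducible discovery rate, lay within 500 bp of one of its annotated transcript starts. The IDR list held 1476 regions, which were the 1476 strongest of the 30000 regions of the pooled list made from both replicates, so a rank up to 1476 in the pooled list is the same as membership of the IDR list. Region height is the authors' signal value, on a scale that differs between lists, and it ran from 65.3 to 529.5 with a median of 85.9 in the IDR list. Heights were therefore compared by rank within a list. Read depth is unknown, and no control list was used, so a gene without a region is described as such and not as free of Jim.

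Jim-GFP was found at 9 of the 73 mitochondrial ribosomal protein genes. Each of the 9 stood head to head with another gene, an arrangement shared by 58 of the 73 members (79.5%). The bound members were mRpS23, mRpL41, mRpL23, mRpS10, mRpL47, mRpS2, mRpL17, mRpL37 and mRpL54, in order of signal. The bound share was 12.3% (exact 95% interval 5.8% to 22.1%), against 970 of all 13945 protein-coding genes (6.96%), a value inside the interval of the members. At 6 of the 9 genes the summit lay closer to the start of the neighbour than to that of the ribosomal protein gene. The gene's own start was thus nearest at 3 of the 9, against 77.2% of all 970 bound genes. Among the 547 bound genes with a divergent neighbour it was nearest in 60.7%. No test was run on these shares, and the intervals cover counting error only.

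The stretch of DNA between the divergent starts is shown for 5 of the 9 pairs, all with the summit nearer to the neighbour's start. Each is Release 6 reference sequence (RefSeq, dm6 coordinates), read 5′ to 3′ on the strand of the ribosomal protein gene, so that it begins beside the start of the neighbour and runs towards the start of the mRp gene. The whole stretch between the starts is given except for mRpS23 and mRpL17, where the 200 bases next to the neighbour are shown of 491 and 398. Capitals mark the 11 bases centred on the IDR summit, or the 10 of them that lie inside the stretch for mRpL47. The neighbours are CenG1A for mRpS23, Art3 for mRpS10, Kdm3 for mRpL47, Mon1 for mRpS2 and Tudor-SN for mRpL17. The pairs of mRpL23, mRpL37 and mRpL41, whose own starts were nearest to the summit, are not shown, and neither is that of mRpL54.
mRpS23 (chr2L:13835364-13835563, minus strand): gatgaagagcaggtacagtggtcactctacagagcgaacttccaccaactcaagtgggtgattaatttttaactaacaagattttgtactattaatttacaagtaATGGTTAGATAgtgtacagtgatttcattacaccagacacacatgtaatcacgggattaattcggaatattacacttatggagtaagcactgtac
mRpS10 (chr3R:15229409-15229664, plus strand): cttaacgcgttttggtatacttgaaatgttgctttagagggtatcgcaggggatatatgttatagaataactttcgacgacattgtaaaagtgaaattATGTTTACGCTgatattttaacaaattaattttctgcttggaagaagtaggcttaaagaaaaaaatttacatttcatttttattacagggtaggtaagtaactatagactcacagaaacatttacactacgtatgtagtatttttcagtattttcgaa
mRpL47 (chr3R:9515909-9516006, minus strand): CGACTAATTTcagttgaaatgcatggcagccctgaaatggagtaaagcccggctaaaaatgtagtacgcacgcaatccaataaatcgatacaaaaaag
mRpS2 (chr2L:4850420-4850640, minus strand): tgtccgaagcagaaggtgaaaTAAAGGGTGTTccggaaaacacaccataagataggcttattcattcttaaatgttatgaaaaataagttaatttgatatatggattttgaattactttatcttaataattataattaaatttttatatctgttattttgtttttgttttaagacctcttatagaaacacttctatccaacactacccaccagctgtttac
mRpL17 (chr3L:264381-264580, plus strand): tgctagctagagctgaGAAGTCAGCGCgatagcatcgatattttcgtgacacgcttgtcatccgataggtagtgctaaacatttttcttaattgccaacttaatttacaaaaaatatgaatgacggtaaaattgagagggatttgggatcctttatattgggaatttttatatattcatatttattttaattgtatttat

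In mRpL47, mRpS2 and mRpL17 the capitals stand near the left end, at bases 5, 27 and 22 counted from the neighbour's start. In mRpS10 and mRpS23 they lie further inside, at bases 104 and 111. The GC content of the printed bases ran from 28.1% in mRpS2 to 40.8% in mRpL47. For mRpS23 and mRpL17 it covers the printed part alone, and no other stretches were measured for comparison.

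The small subunit had the strongest region of all members, upstream of mRpS23 (FBgn0260407, chr2L:13834250-13835072), a small-subunit protein without a bacterial counterpart. The region at chr2L:13835429-13835527 had a signal of 249.3 and ranked 29 in the pooled list. It ranked 138 in replicate 1 and 16 in replicate 3, with summits 384 and 381 bp upstream of the mRpS23 start. It was 99 bp wide, whereas the other 8 regions were 260 bp wide, the usual width in that list. The summit stood 111 bp from the start of CenG1A, which encodes a GTPase-activating protein for Arf, and 381 bp from that of mRpS23.

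The other bound small-subunit genes were mRpS10 and mRpS2, both with bacterial counterparts. The region at mRpS10 (FBgn0038307, chr3R:15229382-15229641) had a signal of 143.9, ranked 162 in the pooled list and 731 in replicate 1, and had no counterpart in replicate 3. The nearest summit of replicate 3 was 12264 bp away, so this region was seen in replicate 1 and in the pooled list but not in replicate 3. Its summit lay 104 bp from the start of Art3, an arginine methyltransferase gene, and 153 bp from the nearer of the mRpS10 starts. The region at mRpS2 (FBgn0031639, chr2L:4850484-4850743) had a signal of 81.9 and ranked 838, with ranks of 820 in replicate 1 and 1458 in replicate 3. Its summit lay 27 bp from the start of Mon1, whose product activates the endosomal GTPase Rab7, and 195 bp upstream of mRpS2.

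Among the bound large-subunit genes, mRpL23, mRpL47 and mRpL17 encode proteins with bacterial counterparts, mRpL47 being the counterpart of bacterial L29. The mRpL23 region (FBgn0035335, chr3L:2373542-2373801) had a signal of 154.3 and ranked 133, with ranks of 191 in replicate 1 and 110 in replicate 3. Its summit was the only one of the 9 downstream of a start of the member, 6 bp inside the transcript, and the start of the neighbour CG9004 lay 24 bp from the outermost mRpL23 start and 56 bp from the summit. At mRpL47 (FBgn0014023, chr3R:9515872-9516131) the signal was 99.7 and the rank 509, with ranks of 500 in replicate 1 and 851 in replicate 3. That summit stood 5 bp from the start of Kdm3, a histone demethylase gene, and 94 bp upstream of mRpL47. CG8176 is annotated with the same start as Kdm3.

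The mRpL17 region (FBgn0035122, chr3L:264272-264531) had a signal of 81.0 and ranked 864, with ranks of 866 in replicate 1 and 1889 in replicate 3. Its summit lay 22 bp from the start of Tudor-SN, which encodes a nuclease with a Tudor domain, and 377 bp upstream of mRpL17. In all 3 lists the mRpL17 summit fell within 377 to 378 bp of the mRpL17 start, so the position repeated although the rank in replicate 3 lay outside the strongest 1476.

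The remaining 3 bound large-subunit genes, mRpL41, mRpL37 and mRpL54, encode proteins without bacterial counterparts. At mRpL41 (FBgn0034001, chr2R:15217612-15217871) the signal was 158.3 and the rank 128, with ranks of 942 in replicate 1 and 55 in replicate 3. Its neighbour CG8079 starts 762 bp away, and the summit lay 125 bp upstream of mRpL41, far closer to it than to CG8079. At mRpL37 (FBgn0261380) the signal was 72.7 and the rank 1154, with ranks of 3066 in replicate 1 and 923 in replicate 3. The summit lay 32 bp upstream of mRpL37. At mRpL54 (FBgn0034579, chr2R:21060434-21060693) the signal was 72.6 and the rank 1162, with ranks of 3430 in replicate 1 and 941 in replicate 3. Here the summit lay 17 bp from CG15653 and 225 bp upstream of mRpL54. The mRpL37 and mRpL54 regions were thus ranked within the strongest 1476 of replicate 3 and outside them in replicate 1.

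**Figure D1:**
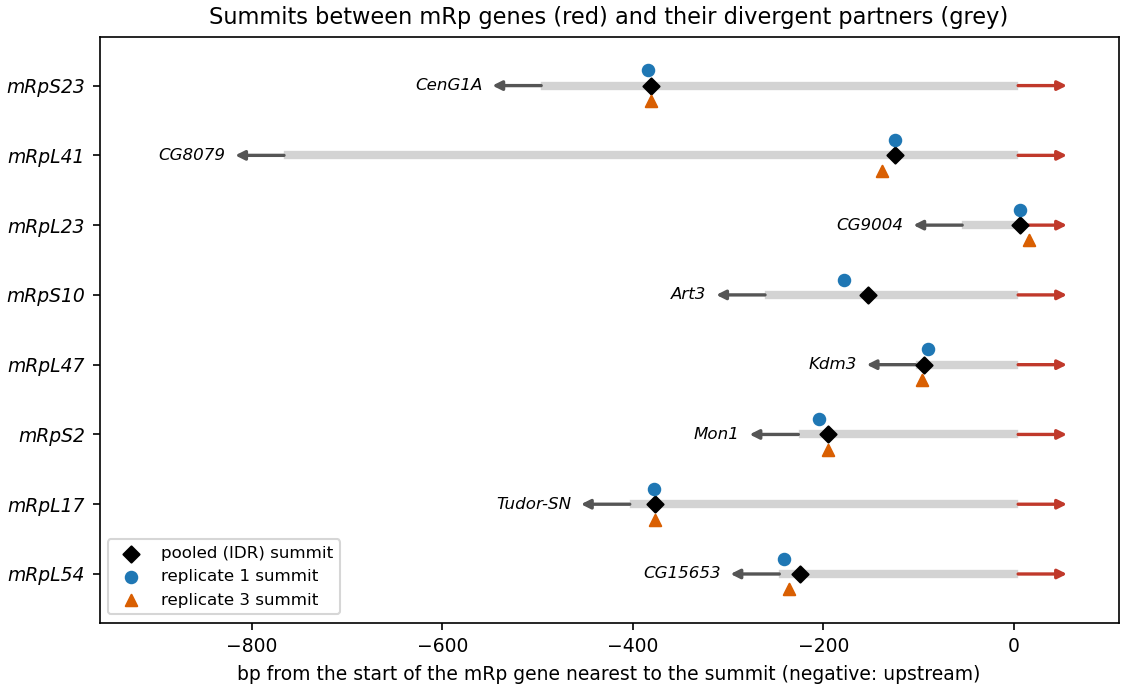
Position of the summit at 8 of the 9 bound genes (mRpL37 is not drawn), in bp from the mRp start nearest to it, with the mRp gene as a red arrow at 0, the divergent neighbour as a grey arrow and the stretch between the starts as a grey bar. Diamonds are IDR summits, circles replicate 1 and triangles replicate 3; at mRpS10 no triangle is drawn because replicate 3 had no region there. The mRpL47, mRpS2, mRpL17 and mRpL54 summits sit at the neighbour's end of the bar, the mRpL41 and mRpL23 summits nearer the mRp end.

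Head-to-head arrangement was common among the members. A start of another protein-coding gene on the opposite strand lay within 1000 bp upstream of 58 of the 73 (79.5%, exact 95% interval 68.4% to 88.0%), against 5052 of all protein-coding genes (36.2%). The median distance between the starts was 283 bp for members and 298 bp for all genes with such a neighbour. All 9 bound members were among the 58 (15.5%, exact interval 7.35% to 27.4%), where 10.8% of all genes with a divergent neighbour were bound. Of the 15 members without one, 0 were bound, which allows a share of up to 21.8% by the exact interval, and 4.76% of all genes without one were bound. The difference between members with and without a neighbour was not tested, and this division of the genes was made after the values were seen.

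**Figure D2:**
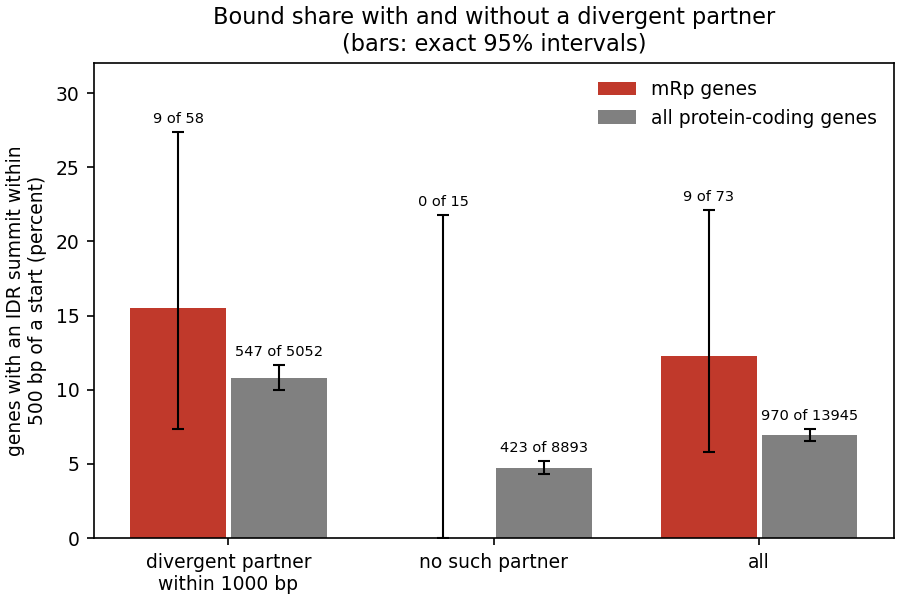
Percent of genes called bound (IDR summit no more than 500 bp from a start), for mRp genes (red) and all protein-coding genes (grey), divided by whether a divergent protein-coding neighbour starts within 1000 bp. Error bars are exact 95% intervals; the mRp shares are 15.5%, 0% and 12.3%, and the grey value of each pair falls inside the interval of the mRp bar beside it.

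The summit at a member tended to belong to the neighbour by distance. Of the 27 members with a divergent neighbour and a pooled region of any rank, 8 had no other start nearer to the summit than their own (29.6%, exact interval 13.8% to 50.2%), and at 19 another start was nearer. Among all 2681 genes with a divergent neighbour and a pooled region the gene's own start was nearest in 64.7%. The number of starts differs between groups of genes, with a mean of 1.1 per member, 1.57 per divergent neighbour of a member and 1.41 over all protein-coding genes. The mean for the 2681 genes alone is not given. With genes of a single start alone the shares were 7 of 24 members (29.2%) and 58.4% of 1586 genes. The neighbour was longer than the member in 51 of 58 pairs, with a median gene length of 2945 bp for neighbours, 909 bp for members and 2166 bp for all protein-coding genes. These shares describe annotated starts, and which gene of a pair a region acts on was not measured.

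Seen from the other side, 11 of the 58 neighbours were bound (19.0%), against 10.8% of all genes with a divergent neighbour and 6.96% of all genes. Besides the neighbours of bound members these were Cip4, FoxK and AGO1. Cip4 lies head to head with mRpS6, and its IDR summit ranked 129 with a signal of 157.9 and lay 62 bp from a Cip4 start and 510 bp from mRpS6, just outside the window. FoxK, a forkhead factor gene, lies head to head with mRpL2, and its summit ranked 869 and lay 170 bp from its start and 568 bp from mRpL2. For AGO1, which encodes the Argonaute protein of the microRNA pathway, the IDR summit ranked 1230 and lay 124 bp from an AGO1 start and 3378 bp from mRpL53. CG8079, the neighbour of mRpL41, was the only neighbour of a bound member that was not itself bound. The other neighbours of bound members named above were reached by the same regions as those members. The share of bound neighbours is thus not separate from that of bound members, and it was not tested. Neighbours also had more starts, with a mean of 1.57 against 1.41 per protein-coding gene.

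Below the IDR list, 22 more members had a pooled region, 18 of them with a divergent neighbour. Another start was nearer to the summit than the member's own at 13 of the 22, and at 9 none was. The first member outside it, mRpL53, ranked 1642 in the pooled list with a signal of 62.2, against rank 1162 and 72.6 for mRpL54, the last inside. The mRpL53 region ranked 4978 in replicate 1 and 1177 in replicate 3, and its pooled summit stood 42 bp from an AGO1 start and 212 bp upstream of mRpL53. The mRpL55 region ranked 2390, with 2196 in replicate 1 and 7614 in replicate 3, and its summit stood 33 bp from ATPsynD, a gene of mitochondrial ATP synthase, and 62 bp from mRpL55. Both are large-subunit proteins without bacterial counterparts. With these, 11 of 73 members had a summit among the 2952 strongest pooled regions (15.1%), where 12.6% of all protein-coding genes did. On the small-subunit side the next were mRpS11 at rank 3993, whose summit was 7 bp from Ns1, mRpS30 at rank 4520, 8 bp from Paf-AHalpha, and mRpS6 at rank 5230, 88 bp from its own start. Further down the large-subunit genes came mRpL20 at rank 3072, 183 bp from Icmt, then mRpL4 at rank 3300, 93 bp from its own start, and mRpL34 at rank 3455, whose summit coincided with the start of Dg, the dystroglycan gene.

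**Figure D3:**
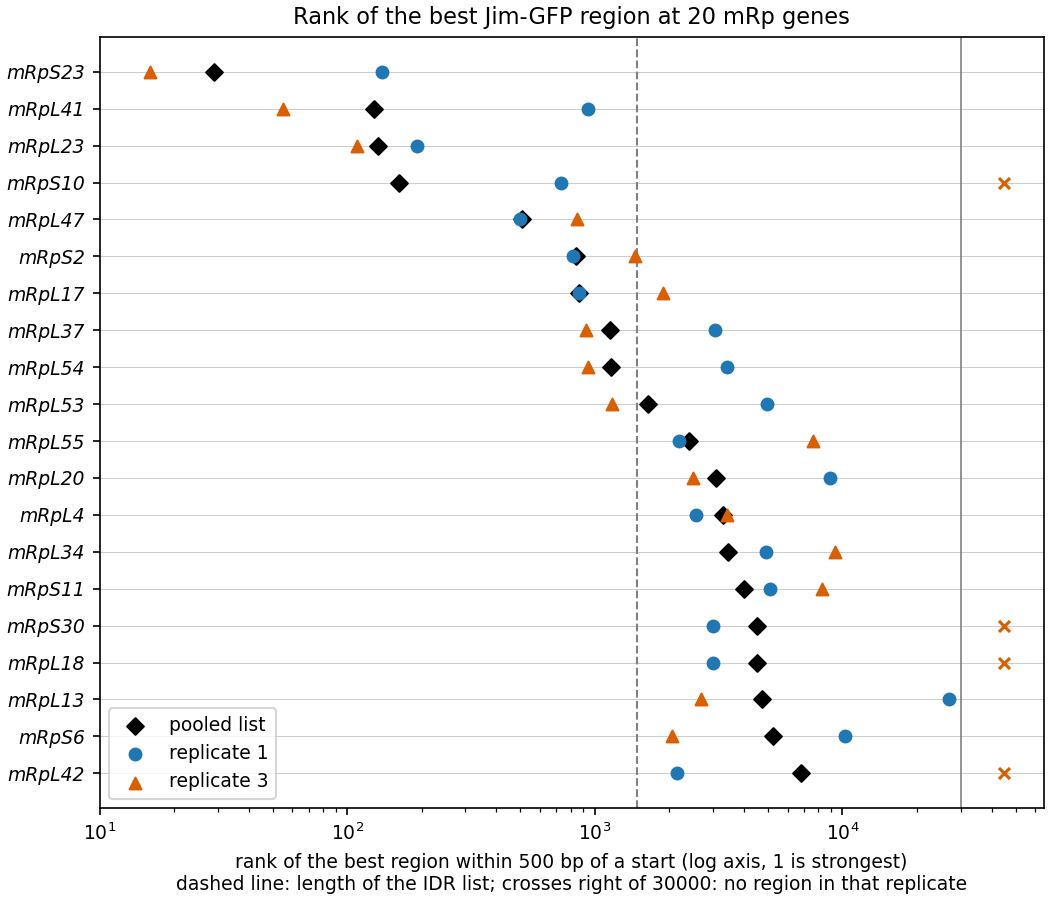
Rank of the best region within 500 bp of a start in the pooled list (diamonds), replicate 1 (circles) and replicate 3 (triangles) for the 20 members with the strongest pooled regions, on a log axis where 1 is strongest. The dashed line is rank 1476, and crosses beyond rank 30000 mark a replicate without a region. The rows of mRpS23, mRpL41, mRpL23, mRpL47 and mRpS2 have all 3 symbols left of the dashed line.

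With pooled regions of every rank counted, the shares of members and of all genes lay close together. At the smaller cuts given below, the member share was the higher. A pooled region of any rank stood at 31 of 73 members (42.5%, exact interval 31.0% to 54.6%), against 42.8% of protein-coding genes. With a divergent neighbour it was 27 of 58 members (46.6%, 33.3% to 60.1%), against 53.1% of all such genes. Members with a divergent neighbour had the lower share here and the higher in the IDR list (15.5%, 7.35% to 27.4%, against 10.8%). In both lists the share of all such genes lay inside the interval of the members, and the change was not tested. With the 5000 strongest regions the shares were 24.7% of members and 18.6% of all genes, and with the 20000 strongest 38.4% and 35.8%. In the IDR list they were 12.3% and 6.96%. These cuts are nested, and changes in the gap from cut to cut were not tested. Of the 31 regions 25 had their summit upstream of the start (80.6%), against 58.8% over all genes with a pooled region. These sets differ in arrangement, since 27 of the 31 members had a divergent neighbour, whose start lies upstream. Of the 5974 genes with a pooled region 2681 had one. The upstream share among genes with such a neighbour is not given, and the difference was not tested. The 20 members ranked beyond 2952 spread from 3072 for mRpL20 to 29808 for mRpL12, the gene of the stalk protein.

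**Figure D4:**
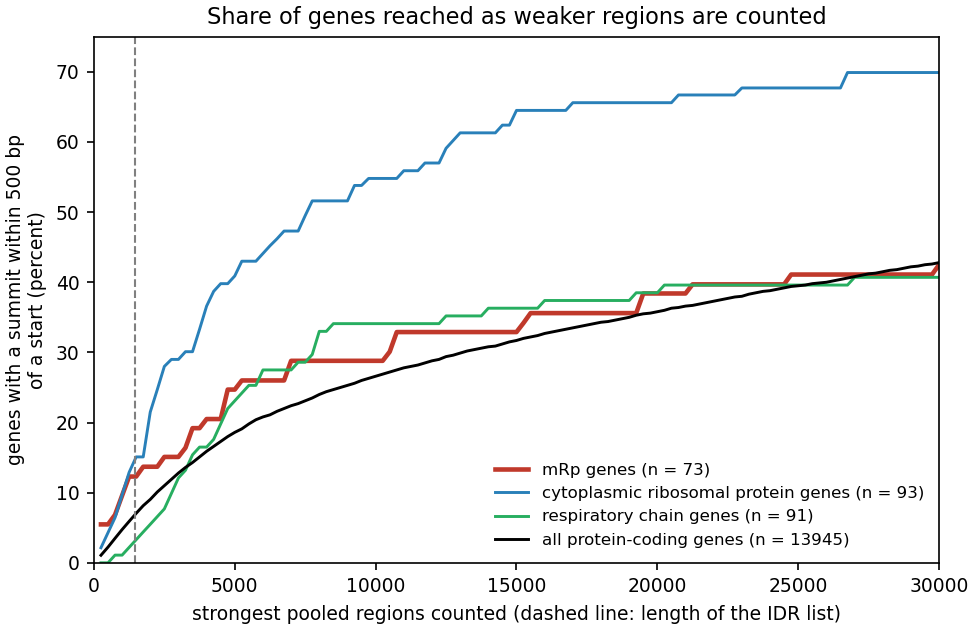
Cumulative percent of genes with a pooled summit within 500 bp of a start as weaker regions are counted, for 73 mRp genes, 93 cytoplasmic ribosomal protein genes, 91 respiratory chain and ATP synthase genes and 13945 protein-coding genes. At the dashed line, the length of the IDR list, the values are 12.3%, 15.1%, 3.3% and 6.96%; at 30000 regions the mRp curve ends at 42.5% and the curve of all genes at 42.8%.

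Each replicate alone placed a similar number of members among its 1476 strongest regions. In replicate 1 these were 7 of 73 (9.59%, exact interval 3.94% to 18.8%), against 7.15% of protein-coding genes, and in replicate 3 they were 8 (11.0%, 4.85% to 20.5%), against 6.53%. Both replicates shared 5 of them (6.85%), namely mRpS23, mRpL41, mRpL23, mRpL47 and mRpS2, and 3.9% of all genes were shared in this way. Replicate 1 added mRpS10 and mRpL17, and replicate 3 added mRpL37, mRpL54 and mRpL53. In the whole lists 35 members had a region in replicate 1 (47.9%, against 45.6% of all genes) and 28 in replicate 3 (38.4%, against 39.2%). Of these, 19 had one in both (26.0%, against 27.3%), 16 in replicate 1 alone and 9 in replicate 3 alone. The library size range given in the labels differed, replicate 1 having 175 to 275 bp and replicate 3 having 200 to 325 bp, and its part in these differences was not tested.

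Of the 42 members without a pooled region, 16 had one in a replicate and 26 had none in any list. The best of the 16 was mRpL16, on X beside trr, at rank 2827 of replicate 1, followed by mRpS29 at rank 3414 and mRpL3 at rank 4013 of the same replicate, none of them found in replicate 3. The gene mRpS5 was the only one of the 16 present in both, at rank 9765 of replicate 1 and 7641 of replicate 3. Its summits lay 80 and 306 bp downstream of a start. The 64 members outside the bound set had their nearest IDR summit at a median of 25062 bp, from 510 bp for mRpS6 upwards.

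Members were divided by subunit and by origin. The large subunit had 6 of 47 genes bound (12.8%, exact interval 4.83% to 25.7%) and the small subunit 3 of 26 (11.5%, 2.45% to 30.2%). Of the 44 members with a bacterial counterpart 5 were bound (11.4%, 3.79% to 24.6%), and of the 29 without one 4 were bound (13.8%, 3.89% to 31.7%). The intervals overlap over most of their length, and the differences were not tested.

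By chromosome, 3 of 21 members on 3R were bound (14.3%, against 7.89% of all protein-coding genes on that arm), 2 of 17 on 3L (11.8%, against 7.92%), 2 of 12 on 2L (16.7%, against 6.81%) and 2 of 12 on 2R (16.7%, against 6.8%). Each of these background shares lies inside the exact interval of the members. On X, 0 of 11 were bound, which allows a share of up to 28.5% by the exact interval, and 4.92% of all protein-coding genes on X were bound. Members rarely had more than 1 start, 67 of 73 (91.8%) having a single start against 73.5% of all genes, so they had fewer chances to be counted. Of the 67, 7 were bound (10.4%, 4.3% to 20.3%), against 4.65% of all genes with a single start.

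Of 39 other genes of mitochondrial gene expression, 1 had an IDR summit at a start (2.56%, exact interval 0.0649% to 13.5%), and the 6.96% of all protein-coding genes lies inside this interval. A pooled region of any rank stood at 13 of the 39 (33.3%, 19.1% to 50.2%), against 42.8% of all genes. Among the 1476 strongest regions of a replicate, replicate 1 had 4 of the 39 (10.3%, against 7.15% of all genes) and replicate 3 had 0 (an upper limit of 9.03%, against 6.53%). The bound gene was LeuRS-m, the mitochondrial leucyl-tRNA synthetase, with a signal of 71.5 at rank 1211, a summit 105 bp upstream of its start, and ranks of 987 in replicate 1 and 1916 in replicate 3. It also lies head to head with a larger gene, Dhc64C, which encodes the heavy chain of cytoplasmic dynein. It was the 1 bound of 16 synthetase or synthetase-like genes. Of 12 translation factor genes 0 were bound, as were 0 of 11 genes of mitochondrial transcription and RNA handling. These counts of 0 allow shares of up to 26.5% and 28.5% by the exact interval. The strongest 1476 regions of replicate 1 held 2 of the 12 translation factor genes and 2 of the 16 synthetase or synthetase-like genes. The ribosomal protein genes tko and bonsai, which the naming rule leaves out, had no pooled region at a start. In the replicate lists tko had a region at rank 10510 of replicate 1 alone and bonsai one at rank 12487 of replicate 3 alone.

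Of 91 respiratory chain and ATP synthase genes, 3 were bound (3.3%, exact interval 0.685% to 9.33%). They were levy (signal 99.7) and COX5A (signal 73.3) of cytochrome c oxidase and ATPsynE (signal 69.5) of ATP synthase. Of 93 cytoplasmic ribosomal protein genes, 14 were bound (15.1%, 8.48% to 24.0%), and the 6.96% of all genes lies below this interval. The difference was not tested. The strongest regions among the 14 were at RpS29 (signal 160.2, rank 125) and RpL34b (signal 132.5, rank 218). With a pooled region of any rank the mitochondrial ribosomal protein genes stood at 42.5%, the cytoplasmic ribosomal protein genes at 69.9% (59.5% to 79.0%) and the respiratory chain genes at 40.7% (30.5% to 51.5%). Over all protein-coding genes the share was 42.8%.

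A set of 9 short motifs was searched on both strands. TATCGATA, the DNA replication-related element, was found on either strand in the 300 bp promoter window (250 bp before to 50 bp after the start at the 5′ end of the gene) of 15 of 73 members (20.5%) and of 9.36% of all protein-coding genes. Among the bound members it was in the windows of mRpL17 and mRpS23, and within 50 bp of an IDR summit it was found at 0 of the 9, and at 1.63% of all 1476 IDR summits. GAGAG, the repeat bound by GAGA factor, was in the windows of 12 members (16.4%) and of 29.7% of all genes. It stood within 50 bp of the summit at mRpL23 and mRpL37, and at 25.5% of all 1476 IDR summits. The forkhead site TGTTTAC was in the windows of mRpL17, mRpS10 and mRpS2 among bound members, in 12.3% of members and in 9.19% of all genes. In mRpS10 it overlaps the capitals in the sequence printed above for that gene, the only 1 of the 9 summits with it within 50 bp, and it stood at 4.34% of all IDR summits. Within 50 bp of the summit CACGTG, an E-box, was found at mRpL23 alone of the 9 and at 1.36% of all IDR summits, and the A tract AAAAAAAA at mRpL41 alone and at 17.4%. GGTCACAC and CACACACA were found at 0 of the 9 summits, as were TATAAA and CCGGAAG. Over all IDR summits the shares were 0.881% for GGTCACAC, 7.18% for CACACACA, 6.17% for TATAAA and 0.271% for CCGGAAG. Among bound members, the promoter windows of mRpL17, mRpL37, mRpL54 and mRpS2 held TATAAA. In the promoter windows of members the shares were 11.0% for GGTCACAC, 6.85% for CACGTG, 15.1% for AAAAAAAA, 5.48% for CACACACA, 46.6% for TATAAA and 0% for CCGGAAG. Over all genes they were 7.7%, 4.2%, 16.0%, 4.02%, 45.8% and 1.09% for these motifs in the same order.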

How the data were processed

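The values are the signal of each region, on the scale of the authors' peak caller, and summit positions, as deposited in narrowPeak lists on dm6. The notes deposited with the lists give a replicate's own alignment plus a control as the source of its list, the alignments of both replicates plus a control as that of the pooled list, and these 3 lists as that of the IDR list. Aligner, caller, IDR threshold and read depth were not given in the sources used here. Lists on dm3 were not used here.

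Starts were all annotated transcript starts of Ensembl release 115 (BDGP 6.54), and RefSeq starts were an alternative. All regions on the 6 arms end within the Release 6 reference arms. Summits were counted from 1, and ranks follow signal within a list. A gene was bound when a summit lay within 500 bp of a start. Shares carry exact Clopper-Pearson intervals at 95%. With 1 group there was no contrast to test over the replicates. The binding rule was checked on simulated summits.

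The members, lists and motifs were chosen with earlier results of these data known. The division by divergent neighbour and by bacterial counterpart was added after the values were seen. Of 59 list entries that are symbols, 16 matched no gene, among them all entries for ribosome assembly, and 2 matched through an older symbol. The entry hrg was removed as a nuclear poly(A) polymerase after its values were seen. Named members are those bound in any list by the rule, those among the 2952 strongest pooled regions and the next 3 per subunit; others named were chosen after their values were seen. Figures used matplotlib 3.10.9, intervals scipy 1.17.1, and tables pandas 2.3.3 and numpy 2.4.6, under Python 3.11.15. Values for 1 neighbouring gene are not reported here.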

Additional observations from a re-analysis of the deposited data

How the results depend on the processing

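The number of bound members depended most on which gene of a divergent pair a summit was given to. With each summit given only to the gene of the nearest start, 3 of 73 members remained of the 9 (mRpL23, mRpL37 and mRpL41). These were 3 large-subunit and 0 small-subunit genes. The share was then 4.1% of members against 5.4% of all genes. Among the alternatives for bound genes, only this setting gave members the lower share, on a count of 3 genes. The difference was not tested. With the region required to overlap the start, 4 members were bound (5.5%, against 4.59% of all genes), 4 of the large and 0 of the small subunit. Both alternatives narrow the distance by construction. With the 738 strongest regions of the IDR list, 5 members were bound (6.8%, against 3.43% of all genes), 3 of them of the large subunit. A window of 250 bp gave 7 bound members (9.6%, against 5.72% of all genes) and a window of 1000 bp gave 11 (15.1%, against 8.44%). With 1 start per gene there were 9 (12.3%, against 5.79%), and with RefSeq starts 9 (12.3%, against 6.96%). The 2952 strongest pooled regions gave 11 (15.1%, against 12.6%). Leaving out replicate 3 gave 7 bound members (9.6%, against 7.15% of all genes), and leaving out replicate 1 gave 8 (11.0%, against 6.53%). Of these, 4 to 6 were of the large and 2 to 3 of the small subunit. For a pooled region of any rank the count ran from 24 with a window of 250 bp (32.9%, against 34.0% of all genes) to 36 with 1000 bp (49.3%, against 53.5%), and leaving out each replicate gave 28 to 35 (38.4% to 47.9%, against 39.2% to 45.6%). Of the 9 genes, mRpL23 and mRpL41 were bound in all 10 alternatives and mRpL17 in 5. No paired analysis was possible because there is 1 group. Unknown read depth limits every statement on genes without a region.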
